A study of Mus musculus with 2 samples.

Results

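Genes whose messenger RNA is made in particular phases of the cell division cycle were read in cells sorted from mouse hindlimb muscle. The set was fixed as a list of symbols and holds 40 of the 27998 genes in the gene table: 15 genes of S phase, when DNA is copied, and 25 genes of G2 and M phase, when the copied chromosomes are condensed and parted. All 40 symbols were found in the gene table.

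The cells came from mice that carry Fsp1-Cre and R26R-EYFP, in both groups. In these mice the Fsp1 (S100a4) promoter drives Cre recombinase, and YFP then marks each cell in which Cre has acted, together with its descendants. Cells that were YFP+ and CD11b- were collected by FACS, either at day 0 from mice without surgery or at day 28 after hindlimb ischemia surgery, and were captured with 10x droplets. Each group is 1 library sequenced on 1 lane; the number, age and sex of the animals, and whether they were pooled, are not given in the sources used here. With 1 library per group no test between the groups is possible, so no p-value is given, and a difference between the surgery groups cannot be told apart from one between animals, sorts or library preparations.

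In late G1 and S phase, E2F transcription factors drive the genes that license and copy DNA, among them the Mcm helicase subunits and the enzymes that make nucleotides. Later the MuvB complex, with B-Myb and then FoxM1, drives the genes of chromosome condensation, the spindle and the anaphase-promoting complex, through a promoter element called CHR, often with CCAAT boxes bound by NF-Y. Blood cell precursors such as erythroblasts and B cell precursors divide fast, while naive lymphocytes rest.

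The promoter sequences of the members are shown first because the 2 phases carry different elements. RefSeq (GRCm38.p6) gave windows of 300 bases, from 250 before to 50 after the start, for 34 of the 40 members, 13 S phase genes with 15 windows and 21 G2/M genes with 22. The E2F motif was searched as TTTCCCGC, TTTCGCGC, TTTGCCGC or TTTGGCGC, the CHR as TTTGAA and the CCAAT box as CCAAT, each on both strands. An E2F match lay in 46.7% of the S phase windows, 4.55% of the G2/M windows and 2.26% of all 32851 windows of 27025 genes. For the CHR the order was the other way round, with 6.67% of the S phase windows, 72.7% of the G2/M windows and 17.9% of all windows. CCAAT matches were in 80.0% of the S phase, 90.9% of the G2/M and 37.4% of all windows. A match is a stretch of letters and not a measured binding site. The printed stretches are the 110 bases before the start, written 5′ to 3′ on the gene's strand, with matches in capitals. They are Mcm6 (chr1:128359706-128359815, minus strand), a helicase subunit whose first capitals hold overlapping E2F matches, and Pcna (chr2:132253181-132253290, minus strand), the sliding clamp of the replication fork, with a CCAAT match alone. The mitotic kinase Cdk1 (chr10:69352913-69353022, minus strand) was the 1 G2/M member with an E2F match in its 300 bases, which lies outside the stretch shown, and it has CHR matches in the stretch. Cdc20 (chr4:118437344-118437453, minus strand) activates the anaphase-promoting complex, Top2a (chr11:99024190-99024299, minus strand) untangles DNA, and Ube2c (chr2:164769819-164769928, plus strand) is the ubiquitin-conjugating enzyme of that complex. Ccnb1 (chr13:100786487-100786596, minus strand), the mitotic cyclin B1, has CCAAT matches and no CHR match in the stretch.
Mcm6: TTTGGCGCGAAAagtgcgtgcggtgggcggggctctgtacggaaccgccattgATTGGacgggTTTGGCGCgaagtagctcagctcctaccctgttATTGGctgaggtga
Pcna: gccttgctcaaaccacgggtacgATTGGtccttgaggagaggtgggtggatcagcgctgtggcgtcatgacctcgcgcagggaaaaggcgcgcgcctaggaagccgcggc
Cdk1: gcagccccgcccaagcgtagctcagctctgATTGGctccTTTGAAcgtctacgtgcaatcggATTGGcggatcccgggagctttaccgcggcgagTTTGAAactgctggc
Cdc20: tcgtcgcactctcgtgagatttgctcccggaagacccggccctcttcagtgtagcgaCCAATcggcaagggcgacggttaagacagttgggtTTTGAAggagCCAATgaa
Top2a: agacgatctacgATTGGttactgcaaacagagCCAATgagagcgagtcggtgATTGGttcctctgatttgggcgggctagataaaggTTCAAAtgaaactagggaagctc
Ube2c: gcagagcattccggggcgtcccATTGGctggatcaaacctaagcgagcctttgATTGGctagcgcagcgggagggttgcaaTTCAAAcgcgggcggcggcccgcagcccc
Ccnb1: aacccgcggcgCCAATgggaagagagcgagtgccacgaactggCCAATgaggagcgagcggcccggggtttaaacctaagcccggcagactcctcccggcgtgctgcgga

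The day 0 library held 2668 barcodes with 19574562 UMIs and the day 28 library 2653 barcodes with 38785525 UMIs. Barcodes held a median of 4844 UMIs in the day 0 library against 12265 in the other. Every cell was therefore thinned to 3000 UMIs where shares of cells or sums over a whole phase list are compared. Sums over smaller groups of members, such as those that license replication origins, use all UMIs, so deep cells weigh more in them. The libraries shared 13 barcodes. Clustering, run without the members and without 120 other listed cell cycle genes, gave 23 clusters, of which 20 took a name from marker lists; a difference between clusters or libraries may come from these rebuilt names. Fibroblast-like cells numbered 12 at day 0 and 4 at day 28, and most cells carried markers of blood lineages, myeloid ones included despite the CD11b- gate. In 10 clusters both libraries had at least 50 cells and were compared; 34 combinations of cluster and library had at least 20 cells and were given levels. Levels are CPM, UMI counts scaled to a common total, and all intervals are exact at 95% and cover counting error only, since UMIs of 1 cell are not independent.

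Erythroblast-like cells and B precursor-like cells held the highest levels of nearly all members. Of the 15 S phase genes, 13 had their highest level in the erythroblast-like cluster (Hba-a1, Hbb-bs), and 22 of the 25 G2/M genes had theirs in the B precursor-like cluster led by Vpreb3 and Myl4. Rrm2, the small subunit of the reductase that makes deoxynucleotides, was at 1372 CPM at day 0 and 853 at day 28 in the erythroblast-like cluster. Ube2c was at 1152 CPM at day 0 and 1029 at day 28 in the Vpreb3 cluster. The exceptions were Uhrf1 (highest in the Vpreb3 cluster), Gins2 (in the B precursor-like cluster led by Vpreb1 and Igll1), Mki67 and Birc5 (in the erythroblast-like cluster) and Cks2. Cks2, a small partner of cyclin-dependent kinases, peaked in the basophil or mast-like cluster, at 1070 CPM at day 0 (343 UMIs in 35 cells) and 808 at day 28. The next levels of Cks2, 867 CPM at day 28 and 858 at day 0 in the Vpreb3 cluster and 858 at day 0 in the erythroblast-like cluster, did not differ from one another beyond counting error.

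**Figure D1:**
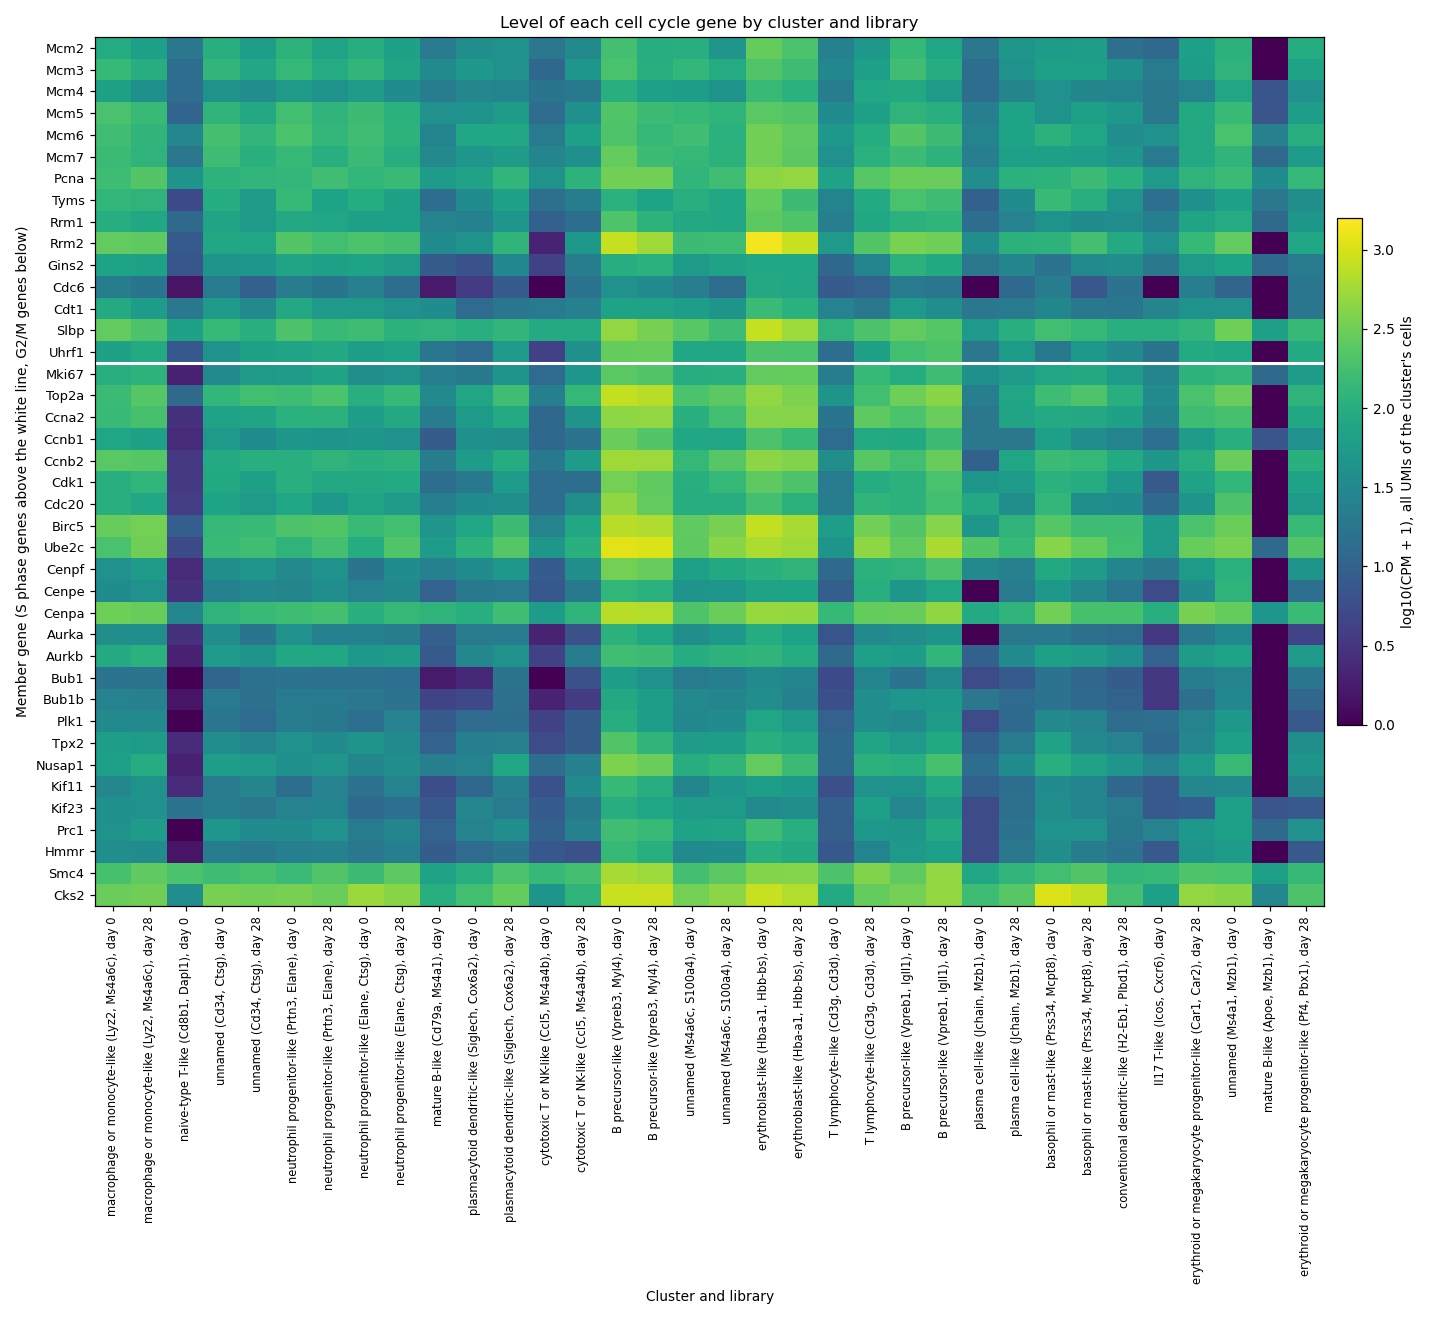
Level of each of the 40 genes (rows, S phase genes above the white line) in the 34 combinations of cluster and library with at least 20 cells (columns), as log10 of CPM plus 1. The Vpreb3 B precursor-like and erythroblast-like columns are the brightest, and Smc4, Slbp and Pcna keep a visible level in the naive-type T-like column, where Bub1, Plk1 and Prc1 are at 0.

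At the low end stood the naive-type T-like cells (Cd8b1, Dapl1), 550 of them at day 0. Mki67, the antigen used to mark cycling cells, had 2 UMIs there (0.945 CPM), and Bub1, Prc1 and Plk1 had none. In the same cells Smc4, a condensin subunit, was at 193 CPM, with a UMI in 38.5% of the thinned cells, Slbp, which binds histone mRNA, was at 66.6 CPM, and Pcna was at 44.0 CPM. The summed thinned level in this cluster was 239 CPM for the S phase genes (216 to 264) and 305 CPM for the G2/M genes (279 to 333). The day 28 library held 10 cells of this cluster, too few for a level, and no other naive-type cluster of at least 20 cells.

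Summed over the 15 S phase genes, the thinned level at day 28 was below that at day 0 in 8 of the 10 compared clusters, and summed over the 25 G2/M genes it was above in 8 of 10; with composition scaling (TMM) these counts were 5 and 9. In the macrophage or monocyte-like cluster (Lyz2, Ms4a6c) the S phase sum was 1734 CPM at day 0 and 1650.4 at day 28 (ratio 0.952, 0.884 to 1.03). Its G2/M sum was 2418 CPM at day 0 and 2856 at day 28 (ratio 1.18, 1.11 to 1.25); at a clustering resolution of 1.2 this ratio was 0.937 (0.867 to 1.01), on the other side of 1. The intervals of the G2/M sums did not overlap between libraries and those of the S phase sums did. In the unnamed cluster led by Ms4a6c and S100a4, the G2/M sum was 2240.1 CPM at day 0 and 3101 at day 28 (ratio 1.38, 1.26 to 1.52), while the S phase ratio was 0.934 (0.823 to 1.06). The unnamed cluster led by Cd34 and Ctsg had an S phase ratio of 0.762 (0.681 to 0.854) and a G2/M ratio of 1.24 (1.11 to 1.38).

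Neutrophil progenitor-like cells had lower S phase sums at day 28 and G2/M sums whose ratios had intervals that span 1 on the CPM scale. The S phase ratio was 0.724 (0.652 to 0.806) in the cluster led by Prtn3 and Elane and 0.794 (0.696 to 0.909) in the cluster led by Elane and Ctsg. Their G2/M ratios were 1.06 (0.957 to 1.17) and 1.09 (0.965 to 1.24); with composition scaling they were 1.19 (1.08 to 1.32) and 1.202 (1.06 to 1.36), both intervals above 1, and the S phase ratio of the Elane and Ctsg cluster was 0.875 (0.767 to 1.002). The erythroblast-like cluster was lower at day 28 for both phases, at 5569.6 and 4242 CPM for the S phase genes (ratio 0.762, 0.712 to 0.815) and 6909 and 5962 CPM for the G2/M genes (0.863, 0.813 to 0.915). The Vpreb3 cluster had 3980.1 and 2669 CPM of S phase genes (0.671, 0.620 to 0.725) beside 8970.15 and 8940.3 CPM of G2/M genes (0.997, 0.951 to 1.04). Composition scaling (TMM), which shifts all ratios of a cluster together, moved them by 0.10 to 0.25 on the log2 scale in 9 clusters and by -0.10 in the erythroblast-like cluster. With it the S phase ratio lay above 1 in the macrophage or monocyte-like (1.04), the Ms4a6c (1.02) and the Vpreb1 (1.02) clusters, and the G2/M ratio of the Vpreb3 cluster became 1.16.

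Plasmacytoid dendritic-like, cytotoxic T or NK-like and Vpreb1 B precursor-like cells had the highest G2/M ratios. In the plasmacytoid dendritic-like cluster (Siglech, Cox6a2), cells that make interferon, the G2/M sum was 617 CPM at day 0 and 1517 at day 28 (ratio 2.46, 2.14 to 2.83). In the cytotoxic T or NK-like cluster (Ccl5, Ms4a4b) it was 344 CPM at day 0 and 908 at day 28 (ratio 2.64, 2.15 to 3.23). These 2 clusters were also the ones with a higher S phase sum at day 28, with ratios of 1.55 (1.30 to 1.85) and 1.83 (1.42 to 2.35). In the Vpreb1 cluster the G2/M sum was 2833 CPM at day 0 and 5402 at day 28 (ratio 1.91, 1.73 to 2.1), beside S phase sums of 2380.2 and 2131 CPM (0.895, 0.793 to 1.01). Over cells at or above the higher of the lowest library totals (4175 UMIs) the plasmacytoid S phase ratio was 1.08 (0.900 to 1.31). At day 0 the cytotoxic T or NK-like sums lay close to those of the naive-type cells, where Smc4 alone gave 310 of the 504 thinned G2/M UMIs.

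**Figure D2:**
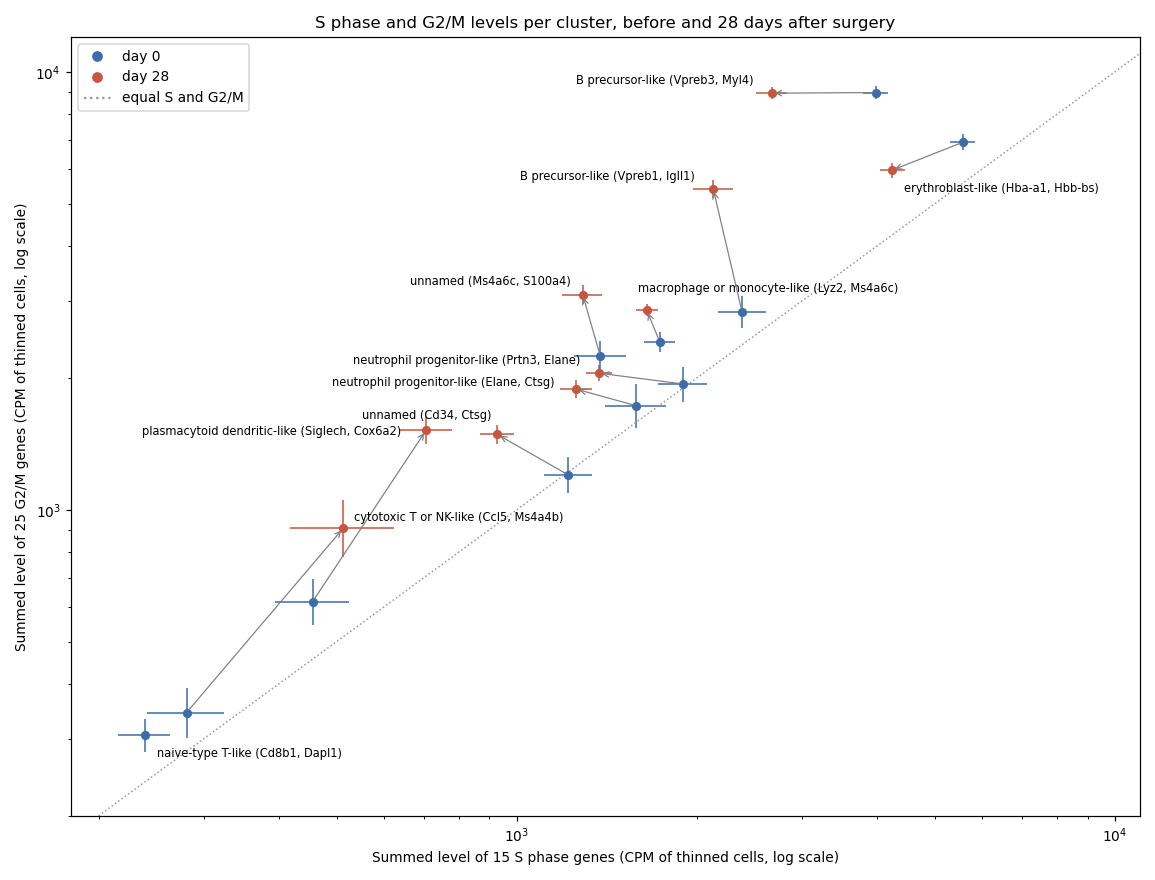
Summed thinned level of the 15 S phase genes (x axis, CPM, log scale) and the 25 G2/M genes (y axis, CPM, log scale) per cluster, with arrows from day 0 to day 28 and bars for 95% counting intervals; the naive-type T-like cluster has a day 0 point alone. All 10 arrows turn to the G2/M side of the dotted line of equal sums, that of the Cd34 and Ctsg cluster from just below the line to above it. The 2 that also run to higher S phase levels belong to the plasmacytoid dendritic-like and cytotoxic T or NK-like clusters.

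The balance of the phases, the G2/M sum over the S phase sum, was higher at day 28 than at day 0 in 10 of 10 compared clusters. It was 1.19 at day 0 and 2.54 at day 28 in the Vpreb1 cluster, a ratio of 2.13 (1.82 to 2.49). The Cd34 and Ctsg cluster came next, at 0.987 and 1.60 (ratio 1.62, 1.39 to 1.90), and the plasmacytoid dendritic-like cluster after it, at 1.35 and 2.15 (1.59, 1.27 to 1.99). The Vpreb3 cluster had 2.25 and 3.35 (1.49, 1.36 to 1.63) and the erythroblast-like cluster, with the smallest shift, 1.24 and 1.41 (1.13, 1.04 to 1.24). The remaining 5 ratios lay between 1.24 and 1.48, each with an interval above 1. A scaling factor cancels in this balance, so it is the same under TMM. Its ratio stayed above 1 in every compared cluster that had a match under each alternative run. At resolution 0.5 the Vpreb1 cluster, with the largest shift, had no match. The interval reached below 1 in 2 clusters with all UMIs and in 1 cluster each with 4000 UMIs and with the shallowest cells left out. Without the 6 Mcm genes the 10 ratios were 1.15 to 1.89. Outside the comparison, with 20 to 49 cells in a library, the basophil or mast-like and plasma cell-like clusters had ratios below 1, at 0.790 (0.594 to 1.05) and 0.791 (0.403 to 1.5), and the T lymphocyte-like cluster had 1.81 (1.32 to 2.49). The shift was measured in 1 pair of libraries that also differ in depth, and thinning evens out totals alone.

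**Figure D3:**
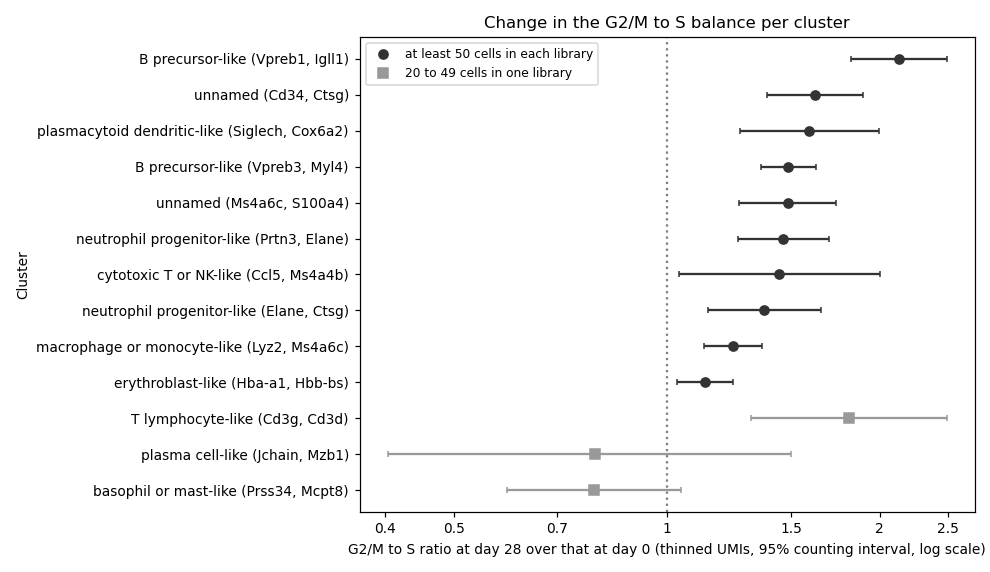
Ratio, day 28 over day 0, of the G2/M to S phase balance per cluster (x axis, log scale), with 95% counting intervals. The 10 compared clusters (circles) lie between 1.13 and 2.13, above the dotted line at 1; of the 3 clusters with 20 to 49 cells in a library (grey squares) the plasma cell-like and basophil or mast-like ones lie below it.

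Among the S phase genes, those that license replication origins were lower at day 28 in 8 of 10 clusters. The group holds Mcm2 to Mcm7, the subunits of the helicase, with its loaders Cdc6 and Cdt1, and its ratio of summed CPM over clusters had a median of 0.705 and a range of 0.630 to 2.22; the interval lay below 1 in 8 clusters. Mcm2 was at 91.2 CPM at day 0 and 63.5 at day 28 in the macrophage or monocyte-like cluster, a ratio of 0.696 (0.586 to 0.829). In the Ms4a6c cluster Mcm2 was at 100.4 and 46.2 CPM, a ratio of 0.460 (0.339 to 0.623), and in the Vpreb1 cluster at 139 and 75.1 CPM, a ratio of 0.542 (0.392 to 0.752). Its level was higher at day 28 in the plasmacytoid dendritic-like and cytotoxic T or NK-like clusters, at 1.11 (0.678 to 1.86) and 1.81 (0.781 to 4.07), both with intervals that span 1. Mcm6 had 167 and 111 CPM in the Ms4a6c cluster and 197 and 131 CPM in the Prtn3 cluster, a ratio of 0.665 (0.589 to 0.753) in the latter. The medians over the 10 clusters were 0.654 for Mcm2, 0.695 for Mcm3, 0.717 for Mcm4, 0.818 for Mcm5, 0.712 for Mcm6, 0.751 for Mcm7 and 0.721 for Cdt1. Cdc6 fell under 10 CPM in some clusters; in the Cd34 cluster it was at 20.3 and 8.62 CPM, a ratio of 0.424 (0.250 to 0.733).

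Of the 3 replication fork members, Pcna and Uhrf1 did not follow the licensing genes. Summed over Pcna, Gins2, a part of the active helicase, and Uhrf1, which keeps DNA methylation through replication, the ratio was above 1 in 10 of 10 clusters (6 with intervals above 1, median 1.15); with TMM the erythroblast-like cluster was at 0.956. Gins2 alone was above 1 in 5 clusters and below 1 in 5, with a median of 1.03. Other listed replication genes, named after their values were seen, were divided. Fen1, the flap endonuclease that trims Okazaki fragments, was below 1 in 9 of 10 clusters (median 0.576). Rpa2, a part of the single-strand binding complex, and Rfc3, of the clamp loader, were below 1 in 8 each (medians 0.671 and 0.714). Dnmt1 was above 1 in 5 clusters and below 1 in 5 (9 above under TMM). Rfc4 and Lig1 were each above 1 in 4 and below 1 in 6 (5 and 6 above under TMM). Pcna was at 160.0 CPM at day 0 and 222 at day 28 in the macrophage or monocyte-like cluster, a ratio of 1.39 (1.23 to 1.56). In the erythroblast-like cluster Pcna was at 445 and 475 CPM, a ratio of 1.07 (0.963 to 1.19), where Mcm6 was at 331 and 263 CPM, a ratio of 0.795 (0.699 to 0.904). Uhrf1 was at 41.4 and 66.3 CPM in the Cd34 cluster, a ratio of 1.60 (1.18 to 2.20). In the 2 clusters with a higher S phase sum at day 28 the fork genes had the highest ratios: 2.40 (1.81 to 3.23) in plasmacytoid dendritic-like and 3.59 (2.42 to 5.36) in cytotoxic T or NK-like cells.

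The summed nucleotide supply genes and Slbp were mostly lower at day 28. No histone gene is among the members. The summed ratio of Tyms, which makes thymidylate, and the reductase subunits Rrm1 and Rrm2 was below 1 in 8 of 10 clusters, 6 with intervals below 1 (6 of 10 below under TMM), with a median of 0.891. Taken singly under TMM, Tyms was below 1 in 8 clusters, Rrm1 in 4 and Rrm2 in 3. Tyms was at 139 CPM at day 0 and 70.1 at day 28 in the Prtn3 cluster, a ratio of 0.503 (0.432 to 0.587), and at 273 and 153 CPM in the erythroblast-like cluster, a ratio of 0.561 (0.482 to 0.653). Rrm2 was at 41.8 and 123 CPM in the plasmacytoid dendritic-like cluster, a ratio of 2.95 (1.98 to 4.52). Slbp was below 1 in 9 of 10 clusters (8 of 10 under TMM), at 830 and 531 CPM in the erythroblast-like cluster (0.639, 0.588 to 0.695) and 484 and 348 CPM in the Vpreb3 cluster (0.720, 0.626 to 0.829).

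Among the G2/M genes, those of chromosome structure were higher at day 28 in 8 of 10 clusters, each with an interval above 1. The group is Mki67, which coats mitotic chromosomes, Top2a and the condensin subunit Smc4, and its ratio had a median of 1.32. Top2a was at 152 CPM at day 0 and 227 at day 28 in the macrophage or monocyte-like cluster, a ratio of 1.49 (1.33 to 1.69), and at 310.3 and 430.2 CPM in the Vpreb1 cluster, a ratio of 1.39 (1.16 to 1.67). Smc4 was at 155 and 254 CPM in the Elane and Ctsg cluster, a ratio of 1.64 (1.42 to 1.91). Mki67 was at 33.3 and 51.3 CPM in the Cd34 cluster, a ratio of 1.54 (1.10 to 2.20), and at 103 and 115 CPM in the macrophage or monocyte-like cluster, a ratio of 1.11 (0.953 to 1.29). The Vpreb3 and erythroblast-like clusters, with the highest Top2a levels, went the other way, at 796 and 717 CPM (0.901, 0.812 to 0.999; 1.05 under TMM) and 476 and 373 CPM (0.782, 0.703 to 0.871).

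The cyclins, kinases and their partners were divided: the summed ratio of Ccna2, Ccnb1, Ccnb2, Cdk1, Aurka, Aurkb, Plk1 and Cks2 was above 1 in 5 clusters and below 1 in 5 (9 above under TMM), with a median of 1.02. Ccna2, cyclin A, which acts from S phase onward, was at 141 CPM at day 0 and 187 at day 28 in the macrophage or monocyte-like cluster, a ratio of 1.33 (1.17 to 1.51). Ccnb1, which peaks later, was at 76.3 and 66.8 CPM in the same cells, a ratio of 0.876 (0.730 to 1.05). Over the 10 clusters the median ratio was 1.39 for Ccna2, 1.15 for Ccnb2, 1.02 for Cdk1 and 0.886 for Ccnb1, the last below 1 in 8 clusters on the CPM scale and in 6 under TMM. In the Vpreb1 cluster Ccnb1 was among the higher genes, at 85.9 and 154 CPM, a ratio of 1.79 (1.28 to 2.55). Aurka, the spindle pole kinase, was at 36.6 and 15.9 CPM in the Cd34 cluster, a ratio of 0.434 (0.294 to 0.646).

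The partners of the anaphase-promoting complex lay on opposite sides of 1 in 5 of 10 clusters, Ube2c above and Cdc20 below: macrophage or monocyte-like, Cd34, both neutrophil progenitor-like and Ms4a6c, the last with Cdc20 at 0.993 (1.09 under TMM). Ube2c was at 188 CPM at day 0 and 320.4 at day 28 in the macrophage or monocyte-like cluster, a ratio of 1.71 (1.54 to 1.90), where Cdc20 was at 102 and 79.8 CPM, a ratio of 0.782 (0.666 to 0.919). In the Elane and Ctsg cluster Ube2c was at 94.8 and 214 CPM, a ratio of 2.26 (1.88 to 2.74), and Cdc20 at 73.6 and 52.3 CPM, a ratio of 0.711 (0.566 to 0.901). In the Prtn3 cluster the ratios were 1.47 (1.27 to 1.70) for Ube2c and 0.648 (0.531 to 0.793) for Cdc20. Over the 10 clusters the medians were 1.68 and 0.749. In the Vpreb1 cluster both were above 1, at 2.43 (2.01 to 2.94) and 1.53 (1.13 to 2.09), and in the erythroblast-like cluster both were below 1, at 0.865 (0.791 to 0.946) and 0.646 (0.537 to 0.778).

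The centromere and checkpoint genes Birc5, Cenpf, Cenpe, Cenpa, Bub1 and Bub1b summed to ratios above 1 in 8 of 10 clusters, each with an interval above 1, with a median of 1.17. Cenpf, which builds the outer kinetochore, was at 15.9 CPM at day 0 and 34.6 at day 28 in the Elane and Ctsg cluster, a ratio of 2.17 (1.39 to 3.58). Birc5, survivin of the chromosomal passenger complex, was at 217 and 417 CPM in the Vpreb1 cluster, a ratio of 1.92 (1.56 to 2.39), and at 803 and 611 CPM in the erythroblast-like cluster, a ratio of 0.761 (0.701 to 0.827). The spindle and cytokinesis genes Tpx2, Nusap1, Kif11, Kif23, Prc1 and Hmmr were above 1 in 7 clusters, 5 with intervals above 1, with a median of 1.15. Kif11, the motor that pushes spindle poles apart, was at 42.9 and 89.6 CPM in the Vpreb1 cluster, a ratio of 2.09 (1.31 to 3.47), and at 13.3 and 25.6 CPM in the Prtn3 cluster, a ratio of 1.92 (1.25 to 3.07). In the Vpreb3 cluster Kif11 was at 137 and 98.6 CPM, a ratio of 0.718 (0.549 to 0.938).

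Counted over the genes measured in all 10 clusters (those reaching 10 CPM on average in each), 9 of 14 S phase members, Mcm2 to Mcm7, Tyms, Cdt1 and Slbp, had ratios below 1 in at least 8 clusters, where 36.1% of 3970 genes did. Under TMM it was 8 of 14, without Cdt1, beside 18.8% of genes. Pcna and Uhrf1, 2 of the 14, were above 1 in at least 8 clusters on both scales, beside 15.7% of genes on the CPM scale and 31.4% under TMM. As a count this is not above the share of all genes. Of 19 G2/M members, 9 were above 1 in at least 8 clusters, where 15.7% of genes were: Mki67, Top2a, Ccna2, Birc5, Ube2c, Cenpf, Cenpe, Kif11 and Smc4. Under TMM it was 14 of 19, beside 31.4% of genes. The cut at 8 clusters was set after the values had been seen, and the clusters share both libraries. In 10 of 10 clusters the median ratio of the G2/M members was above that of the S phase members; the S phase median lay below that of all genes in 8 clusters and the G2/M median above it in 8.

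**Figure D4:**
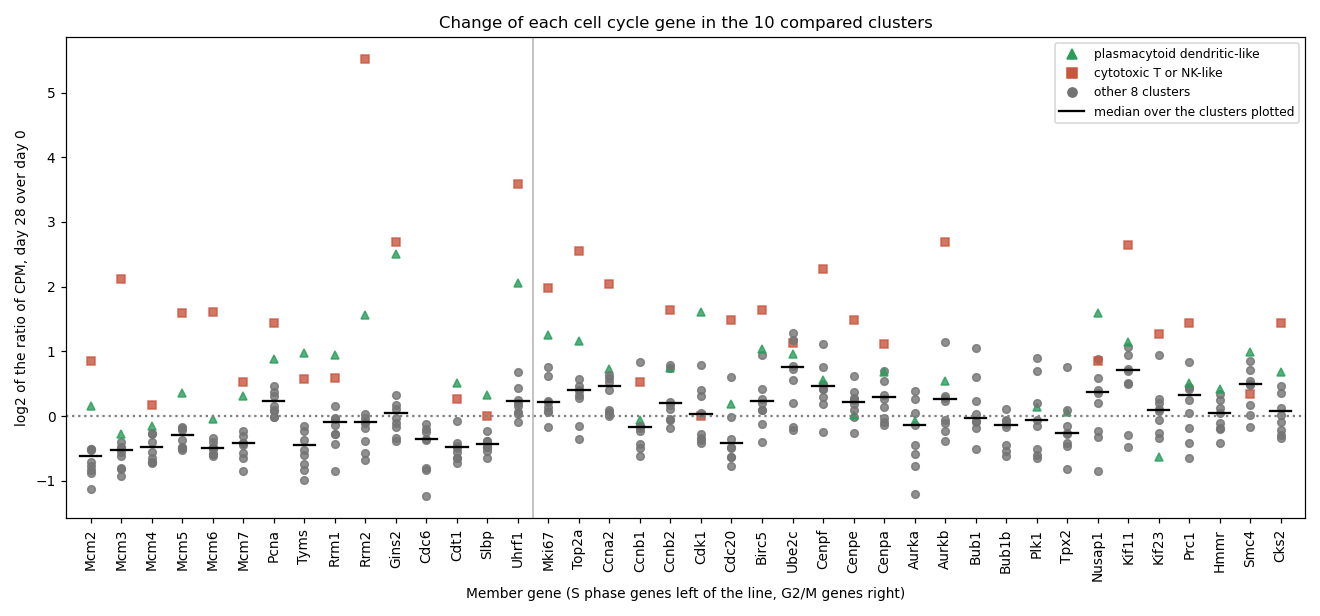
log2 of the ratio of CPM, day 28 over day 0 (y axis), for each gene (x axis) in each compared cluster where its mean reached 10 CPM; bars are medians over the clusters plotted. All 6 Mcm bars lie below 0, Pcna and Uhrf1 lie above, and the plasmacytoid dendritic-like (triangles) and cytotoxic T or NK-like (squares) points top most columns; the square at Rrm2 rests on 1 UMI at day 0.

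The cytotoxic T or NK-like cluster had the most members past a 2-fold difference. Of 33 members measured there, 22 were more than 2-fold higher at day 28 (7 of 14 S phase and 15 of 19 G2/M genes), beside 6.41% of all genes measured. None was 2-fold lower, beside 12.6%. Among the 22, Rrm2 with 1 UMI at day 0 and Gins2 and Uhrf1 with 3 each passed the 10 CPM filter only through their day 28 levels. Over members with a mean of at least 25 CPM, 13 were higher, and no share of all genes is given at that mean. The counts are small: Top2a had 21 UMIs at day 0 (22.9 CPM) and 51 at day 28 (134 CPM; ratio 5.86, 3.46 to 10.2), with 38.1% and 19.6% of them from 1 cell. Mki67 had 11 UMIs at day 0 (12 CPM) and 18 at day 28 (47.3 CPM; ratio 3.95, 1.76 to 9.25). Birc5 had 24 and 31 UMIs (26.2 and 81.5 CPM; ratio 3.11, 1.77 to 5.55). Pcna had 39 and 44 UMIs (42.5 and 116 CPM; ratio 2.72, 1.73 to 4.30). Rrm2 had 1 UMI at day 0 and 19 at day 28 (ratio 45.8, 7.28 to 1904), and 47.4% of the day 28 UMIs were from 1 cell. Slbp, at 89.4 CPM in both libraries (ratio 1.0, 0.650 to 1.51), and Cdk1, at 13.1 CPM in both, did not share the difference. The median log2 ratio was 1.15 for the S phase and 1.49 for the G2/M members, beside -0.13 for all genes. The cells numbered 215 at day 0 and 65 at day 28. Markers of another type moved beside this: the summed level of the neutrophil progenitor list was 110 CPM at day 0 and 476 at day 28, and that of the cytotoxic T or NK list 14328 and 9286 CPM. Their part in the result was not tested.

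In the plasmacytoid dendritic-like cluster, 9 of 37 measured members were more than 2-fold higher at day 28 (3 S phase and 6 G2/M genes), beside 3.65% of all genes. On the lower side 0 were past 2-fold, beside 5.93%. With means of per-cell CPM 17 were higher, and no share of all genes is given on that scale. Gins2 had 4 UMIs at day 0 and 32 at day 28 (5.39 and 30.6 CPM, ratio 5.67, 2.01 to 22.1) and passed the 10 CPM filter only through its day 28 level. Uhrf1 had 9 and 53 UMIs (12.1 and 50.7 CPM, ratio 4.18, 2.04 to 9.63). Cdk1, the kinase that starts mitosis, was at 18.9 and 57.3 CPM, a ratio of 3.04 (1.68 to 5.89), and Top2a at 74.1 and 166 CPM, a ratio of 2.24 (1.65 to 3.10). Among the lower ratios were those of Ccnb1, at 39.1 and 37.3 CPM (0.954, 0.575 to 1.60; 1.03 under TMM) and Kif23, at 29.7 and 19.1 CPM (0.645, 0.334 to 1.24; 0.698 under TMM). The median log2 ratio was 0.43 for the S phase members and 0.68 for the G2/M members, beside -0.09 for all genes. In this cluster the neutrophil progenitor list summed to 106 CPM at day 0 and 491 at day 28, and the plasmacytoid dendritic list to 9223 and 7984 CPM; their part in the result was not tested.

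In the Vpreb1 B precursor-like cluster 4 of 40 members were more than 2-fold higher at day 28, beside 3.31% of all genes. Ube2c led them, at 258 CPM at day 0 and 625 at day 28. None was 2-fold lower, beside 8.13%. The shares of all genes past 2-fold in this paragraph are on the CPM scale, and none is given for other settings. With TMM and with means of per-cell CPM, 10 members of the Vpreb1 cluster were higher. Smaller differences were wider spread there: the interval lay above 1 for 19 of 25 G2/M members and for none of the 15 S phase members, beside 5.04% of all genes, and below 1 for 4 S phase members and no G2/M member, beside 11.6%. With TMM, 22 G2/M members and 1 S phase member lay above, beside 9.5%, and 2 S phase members below, beside 6.29%. The median log2 ratio was -0.24 for the S phase and 0.75 for the G2/M members, beside -0.15 for all genes. The neutrophil progenitor list summed to 89.8 CPM at day 0 and 520.0 at day 28 in these cells, and its part was not tested. In the Elane and Ctsg cluster 2 of 40 members, Ube2c and Cenpf, were more than 2-fold higher, beside 0.702% of all genes, and 0 lower, beside 2.5%. No member was past 2-fold higher in the macrophage or monocyte-like (0.473% of all genes), Prtn3 (0.661%; 1 member with TMM), Cd34 (0.87%), Ms4a6c (1.27%), Vpreb3 (1.62%) or erythroblast-like (4.31%) clusters. Past 2-fold lower on the same scale were Cdc6 and Aurka in the Cd34 cluster (5.35% of all genes) and Mcm2 in the Ms4a6c cluster (4.13%); with TMM none of the 3 was past it. In the Vpreb3 cluster 0 members were past 2-fold lower (2 with means of per-cell CPM), beside 7.61% of all genes. There 13 of 25 G2/M intervals over all UMIs lay below 1, beside 19.0% of all genes, and none above, beside 4.42%; the median log2 ratio of these members was -0.26, beside -0.24 for all genes. With TMM, 2 G2/M intervals lay below 1, beside 8.91%, and 2 above, beside 9.22%. The thinned sum was at 0.997; over all UMIs deep cells weigh more than shallow ones.

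Shares of cells with UMIs of a list were compared after thinning. Naive-type T-like cells, with a median of 3570.5 UMIs, set the background: at day 0, 15.8% (12.9 to 19.1) of them had at least 2 S phase UMIs after thinning and 22.0% (18.6 to 25.7) at least 2 G2/M UMIs. The plasmacytoid dendritic-like cluster, with medians of 4433 UMIs at day 0 and 5094.5 at day 28, had 16.3% of cells with at least 2 G2/M UMIs at day 0, below that background, and 50% (42.3 to 57.7) at day 28; without thinning the shares were 27.2% and 66.1%. In the cytotoxic T or NK-like cluster, with medians of 3921 and 4982 UMIs, the share was 15.3% (10.8 to 20.9) at day 0 and 43.1% (30.8 to 56.0) at day 28; without thinning it was 25.1% and 56.9%. The cytotoxic share at day 0 was not above that background, beside G2/M sums of 344 CPM (300.4 to 393) there and 305 (279 to 333) in naive-type cells. Smc4 gave 79 of the 222 thinned G2/M UMIs in the cytotoxic cluster and 310 of 504 in naive-type cells. Ube2c was at 49.1 CPM in the cytotoxic cluster (44.4% of its UMIs from 1 cell) against 4.25, so the share is not read as an absence of cycling cells. The plasmacytoid share at day 0 goes against the summed level, 617 CPM (546 to 695), so no order is read from it. Naive-type cells held Smc4 at 193 CPM, against 99.7 in the plasmacytoid cells at day 0, and Ube2c at 4.25 CPM, against 116. In the Vpreb1 cluster 62.5% (49.5 to 74.3) of cells at day 0 and 88.2% (80.4 to 93.8) at day 28 had at least 2 G2/M UMIs. All 134 cells of the Vpreb3 cluster at day 28 and all erythroblast-like cells of both libraries reached 2 G2/M UMIs. Over all kept cells the share was 43.5% at day 0 and 79.5% at day 28, a figure that also moves with the makeup of the clusters.

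Cells with UMIs of 1 phase alone were a minority in fast-dividing clusters. In the Vpreb3 cluster 87.3% of thinned cells at day 0 and 91.8% at day 28 had at least 2 UMIs of both lists. In the plasmacytoid dendritic-like cluster 4.76% had both at day 0 and 27.0% at day 28, 23.0% had G2/M UMIs alone at day 28 against 11.6% at day 0, and S phase UMIs alone were found in 16.3% at day 0 and 5.75% at day 28. In the Vpreb1 cluster cells with S phase UMIs alone were 18.8% at day 0 and 7.84% at day 28. Many cells lie near the cut of 2 UMIs, so these classes are ranges and not phases.

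The division into phases was compared with the cells of each library, pooled over clusters. Clusters differ in their balance of G2/M to S phase UMIs, at 2.25 in the Vpreb3 and 0.987 in the Cd34 cluster at day 0. The part of cell type in the leaning was not tested. Each gene was left out in turn, thinned cells were called S-heavy or G2/M-heavy where a list had at least 3 UMIs and more than 2 times the other, and the gene's UMIs per cell were compared. All 25 G2/M genes had more UMIs per cell in G2/M-heavy cells in both libraries, each with an interval above 1, with a median ratio of 6.75 at day 0 and 5.85 at day 28. Of the 15 S phase genes, 14 at day 0 and 13 at day 28 leaned to S-heavy cells, 13 and 12 of them with intervals below 1. The median ratios were 0.351 and 0.562. Slbp at day 28 was at 0.893 (0.746 to 1.07). Plk1, the polo kinase of mitosis, leaned furthest at day 0, at 69.9 (12.2 to 2788, with 1 UMI in S-heavy cells) and was at 9.21 (4.13 to 25.5) at day 28. Cenpf was at 40.02 (15.4 to 148) and 28.2 (12.8 to 77.1), and Cdc20 at 23.7 (13.1 to 47.9) and 17.9 (9.32 to 39.4). Top2a, at 1.81 (1.49 to 2.20) and 2.55 (2.15 to 3.05), Smc4, at 2.32 and 2.31, and Cdk1, at 2.60 (1.95 to 3.49) and 3.0 (2.25 to 4.08), leaned least of the 25 G2/M genes at day 0. At day 28 Cks2 (2.43) and Mki67 (2.77) also leaned less than Cdk1. Rrm2 went against its list, at 1.44 (1.2 to 1.72) at day 0 and 1.13 (0.958 to 1.34) at day 28, and Rrm1 was at 0.876 (0.652 to 1.18) and 1.13 (0.860 to 1.49). Mcm2 leaned to S-heavy cells at 0.303 (0.222 to 0.410) at day 0 and 0.464 (0.352 to 0.615) at day 28, and Mcm6 at 0.303 (0.236 to 0.388) and 0.420 (0.340 to 0.521). In cells with no UMI of any other member there was still Smc4, at 0.389 UMIs per cell at day 0 and 0.160 at day 28, and Slbp, at 0.213 and 0.134.

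**Figure D5:**
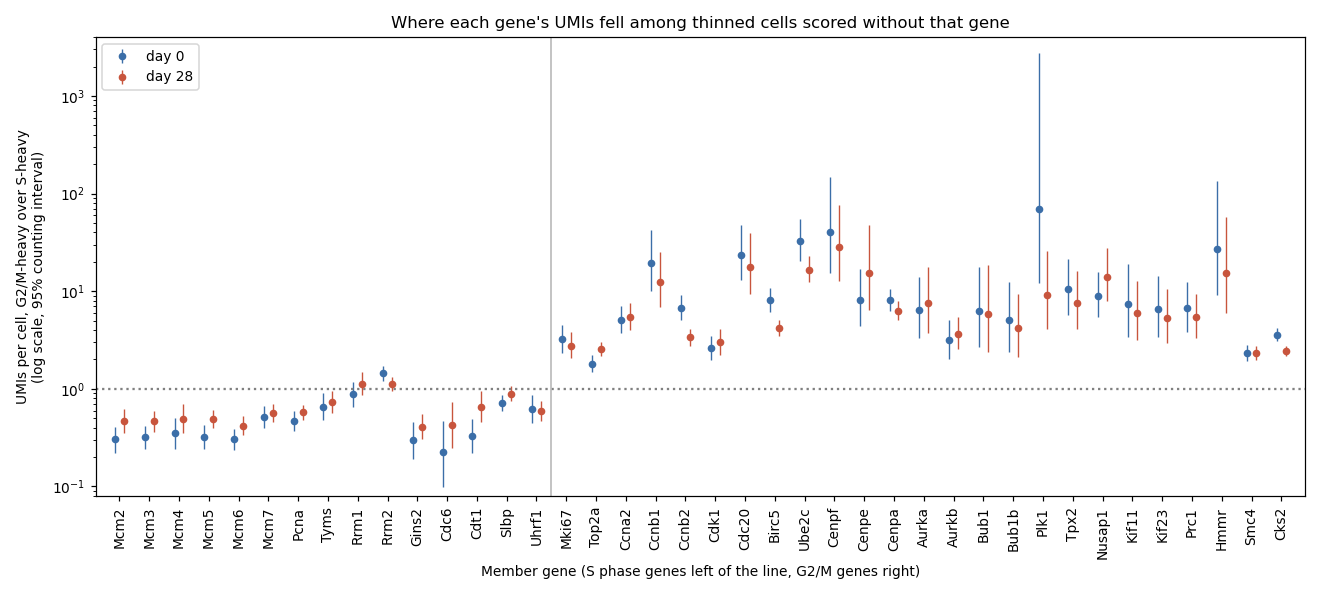
UMIs per cell in G2/M-heavy over S-heavy thinned cells (y axis, log scale, 95% counting intervals) for each gene (x axis), with cells pooled over clusters and scored without that gene. All 25 G2/M genes lie above the dotted line at 1 in both libraries, and of the S phase genes Rrm2 at both days and Rrm1 at day 28 lie above it.

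Across the 34 levels, members of a phase followed one another more closely than members of different phases. The median Spearman correlation was 0.870 over 91 pairs of S phase genes, 0.889 over 253 pairs of G2/M genes and 0.806 over 322 mixed pairs, for the 37 members with a mean of at least 25 CPM. Most like Mki67 among 4179 genes were Ccna2 (0.95), Cdca3 (0.947), Birc5 (0.946), Smc2 (0.945) and Cenpa (0.940). Most like Mcm5 were Hat1 (0.955), Mcm7 (0.954), Mcm3 (0.947), Atp5o (0.933) and Tk1 (0.932). These points share 2 libraries and differ in depth, so the values are a description.

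The 120 other listed cell cycle genes were read against the same shares of all genes. The filter is the same mean of 10 CPM, which a gene can pass through its level in 1 library alone. In the cytotoxic T or NK-like cluster 32 of 63 measured listed genes were more than 2-fold higher at day 28, beside 6.41% of all genes, and 1 was lower, beside 12.6%. Of these, 8 of 15 measured replication genes were higher and none lower (median log2 ratio 1.01), and 6 of 9 kinetochore and checkpoint genes were higher with 1 lower, the securin Pttg1. The 3 measured mitotic entry phosphatases and kinases had a median of -0.67 there. In the plasmacytoid dendritic-like cluster 25 of 87 genes were higher, beside 3.65%, and none lower, beside 5.93%. There 5 of 12 spindle and cytokinesis genes were higher (median 0.92), with Cdca3 at 39.1 CPM at day 0 and 122 at day 28 the highest, a ratio of 3.13 (2.08 to 4.86). In the Vpreb1 cluster 12 of 110 genes were higher, beside 3.31%, and 2 lower, beside 8.13%. The regulators E2F, FoxM1 and MuvB had 3 of 8 higher (median 0.61) while 3 of 26 replication genes were higher (median -0.21); Foxm1 was at 11.7 and 29.0 CPM, a ratio of 2.48 (1.03 to 7.22). In the Vpreb3 cluster none of 113 genes was past 2-fold, beside 1.62% higher and 7.61% lower of all genes. There 8 of the 9 groups had negative medians, 3 groups lay above the median of all genes (-0.24), and 6 groups were negative with TMM. Kinetochore and checkpoint genes had medians of -0.30 in the Prtn3 and -0.19 in the Cd34 cluster, beside -0.15 and -0.20 for all genes. In the Elane and Ctsg cluster 3 of 8 mitotic entry genes were measured, with a median of -0.51, beside -0.11 for all genes and 0.25 for the 25 G2/M members.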

How the data were processed

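The deposited files hold whole-number UMI counts per gene and cell barcode, not normalized by the authors, per the file headers. Cell Ranger 2.1.1, STAR (version not given in the sources used here) and build mm10 are named in the submitters' processing notes. Groups come from the labels. The members and lists were chosen with earlier results of these data known.

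Barcodes passed with 500 or more genes and no more than 10% of UMIs from mitochondrial genes. Automatic doublet calls (Scrublet in scanpy 1.11.5) marked 0.150% and 0.302% of barcodes, too few to have worked, so the 57 and 56 top scorers (a number set from the barcode count) were left out, leaving 2609 cells at day 0 and 2580 at day 28. With 2000 variable genes, 30 principal components, 20 neighbours and resolution 0.8 (leidenalg 0.10.2), members and 120 other cell cycle genes left out, 23 clusters were found. They were named from 24 marker lists (at least 3 markers seen and the best score); the score minimum, the grouping of T cell and of B precursor lists, and the merged names were set after seeing the data.

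Levels summed over a whole phase list and shares use cells thinned to 3000 UMIs, which left out 0 cells. Sums over smaller groups of members use all UMIs. Levels and ratios of single genes use all UMIs, in genes with a mean of at least 10 CPM; a gene at 0 was set at a floor of 3 UMIs per library for counts past 2-fold. Ratios are day 28 over day 0, with conditional binomial intervals; levels have Poisson and shares Clopper-Pearson intervals (scipy 1.17.1, numpy 2.4.6). TMM factors came from edgeR 4.0.16, which ran no test. The scripts were tested on simulated data. Members were all open to naming; other genes were named as the 2 highest or lowest of a listed group or the 5 most like Mki67 and Mcm5. Alternatives tried were other thinning, depth, doublet, resolution, clustering, filter, cut and scaling settings; the TMM, Mcm-free and balance settings were chosen after seeing the data.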

Additional observations from a re-analysis of the deposited data

How the results depend on the processing

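No paired analysis was possible because each group is 1 library and the labels carry no replicate numbers. Ratios are day 28 over day 0. Of ratios whose interval excluded 1, the macrophage or monocyte-like G2/M ratio crossed 1, at resolution 1.2, at 0.937 (0.867 to 1.01); the cause was not tested for it or for the values below. Of those with intervals spanning 1, the S phase ratios of the macrophage or monocyte-like, Ms4a6c (1.02) and Vpreb1 clusters crossed with TMM, the Vpreb3 G2/M ratio with TMM, with no doublets left out and at both resolutions, and 6 share ratios under other minimums or with no doublets left out. With all UMIs, S phase ratios were 0.863 (macrophage or monocyte-like) and 0.725 (Vpreb3), G2/M ratios 1.01 (Cd34), 1.73 (plasmacytoid), 0.870 (Vpreb3) and 1.69 (Vpreb1), and balance ratios 1.32 (Cd34), 1.14 (plasmacytoid, 0.990 to 1.32) and 1.2 (Vpreb3). With 4000 UMIs, S phase ratios were 1.21 (plasmacytoid) and 0.709 (erythroblast-like), G2/M ratios 1.83 (plasmacytoid), 2.07 (cytotoxic) and 0.913 (Vpreb3), and balance ratios 1.03 (cytotoxic, 0.735 to 1.44), 1.30 (Vpreb3) and 1.25 (erythroblast-like). Over cells at or above 4175 UMIs, S phase ratios were 1.08 (plasmacytoid), 0.736 (Vpreb3) and 0.744 (Vpreb1), G2/M ratios 1.64 (plasmacytoid), 1.92 (cytotoxic) and 0.935 (Vpreb3), the Vpreb3 G2/M share ratio 1.01 and balance 1.27. With no doublets left out, the S phase ratio was 0.797 (Ms4a6c), G2/M ratios 1.959 (plasmacytoid), 1.2 (Vpreb3), 1.26 (Ms4a6c) and 1.51 (Vpreb1), and balance ratios 1.24 (plasmacytoid), 1.77 (Vpreb3) and 1.56 (Vpreb1). With cell cycle genes in the clustering, G2/M ratios were 1.98 (plasmacytoid) and 1.23 (Ms4a6c). At resolution 0.5, where the Vpreb1 cluster had no match, they were 1.06 (Vpreb3, G2/M) and 0.817 (Ms4a6c, S phase). At resolution 1.2, S phase ratios were 0.745 (macrophage or monocyte-like) and 1.21 (plasmacytoid, 0.884 to 1.65), G2/M ratios 1.39 (Cd34), 2.06 (plasmacytoid), 1.2 (Vpreb3) and 1.69 (Vpreb1), and balance ratios 1.94 (Cd34), 1.80 (Vpreb3) and 1.75 (Vpreb1). Share ratios at 1 UMI were 1.03 (macrophage or monocyte-like, S phase), 1.64 (plasmacytoid, G2/M), 1.07 and 1.39 (cytotoxic, S phase and G2/M), and at 3 UMIs 0.833 (Prtn3, S phase), 6.62 and 4.69 (cytotoxic) and 1.40 (Ms4a6c, G2/M). With TMM, S phase and G2/M ratios were 1.04 and 1.30 (macrophage or monocyte-like), 0.905 and 1.47 (Cd34), 0.814 and 1.19 (Prtn3), 0.779 and 1.16 (Vpreb3), 1.02 and 2.17 (Vpreb1), and the erythroblast-like G2/M ratio 0.807. Counts of members past 2-fold became 1 lower at a mean of 25 CPM and 0 with TMM (Cd34), 1 higher with TMM and with per-cell means (Prtn3), 17 higher with per-cell means (plasmacytoid), 13 higher at 25 CPM (cytotoxic), 2 lower with per-cell means (Vpreb3), 0 lower with TMM (Ms4a6c), and 10 higher with TMM and with per-cell means (Vpreb1). Shares of all genes past 2-fold are given on the CPM scale at a mean of 10 CPM alone, so these other counts have no share beside them. Depth limits day 0 most: 918 of its kept cells had under 4000 UMIs, against 0 at day 28, and in the cytotoxic cluster single members rest on 1 to 126 UMIs per library.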

Other observations

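Of the 120 other listed cell cycle genes, 51 reached 10 CPM in all 10 compared clusters. On the CPM scale 9 of the 51 had ratios of day 28 over day 0 above 1 in at least 8 clusters, beside 15.7% of all genes. Below 1 in at least 8 were 11, beside 36.1%. Under TMM the counts were 20 and 5, beside 31.4% and 18.8% of all genes. The genes named in the next 2 sentences were chosen after their values were seen. Pttg1, the securin that holds back separase until anaphase, was below 1 in 10 of 10 clusters on both scales, with a median ratio of 0.637 and a range of 0.438 to 0.851, and 4 intervals below 1. Smc2, the condensin partner of Smc4, was above 1 in 10 of 10 clusters on both scales, 6 with intervals above 1, with a median of 1.36.

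The mature B-like cluster (Cd79a, Ms4a1), 312 cells at day 0, had 33.0% of thinned cells with at least 2 S phase UMIs (27.8 to 38.5) and 20.2% with at least 2 G2/M UMIs (15.9 to 25.1), the reverse order of the naive-type T-like cells. The unnamed cluster led by Ms4a1 and Mzb1, 59 cells at day 0 and 0 at day 28, had a G2/M sum of 2989 CPM and an S phase sum of 1655 CPM. Basophil or mast-like cells had 88.6% of 35 cells at day 0 and 88.0% of 75 at day 28 with at least 2 G2/M UMIs, against 51.4% and 68.0% for the S phase list. Erythroblast-like cells at day 28 held Cdk6 at 64.3 CPM against 23.1 at day 0, a ratio of 2.78 (1.84 to 4.35), the highest of the G1 cyclins and kinases there.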
